A study of Mus musculus with 3 samples.

Results

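The insulin and insulin-like growth factor (IGF) signalling genes of the mouse heart were taken as 10 genes chosen by symbol: the ligands Igf1 and Igf2, the receptors Insr, Igf1r and Igf2r, the adaptors Irs1 and Irs2, and the carriers Igfbp3, Igfbp4 and Igfbp5. All 10 were found among the 16587 genes of the count table. Poly(A) RNA was sequenced from hearts of wild-type (WT) male mice aged 12 weeks, in 3 libraries numbered 1 to 3. The libraries form a single group with no treatment and no second genotype, so levels, ratios between genes and spread between libraries are the comparisons the design allows. The labels give neither the strain nor the feeding state nor the hour of killing. They also do not say that each library came from its own animal, so every p-value below reflects library-to-library spread that may be technical in origin.

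Insulin and the IGFs bind related receptor tyrosine kinases on the cell surface. Insr, the insulin receptor, and Igf1r, the receptor of both IGFs, phosphorylate the docking proteins Irs1 and Irs2, which recruit PI3-kinase and so switch on AKT, glucose uptake and protein synthesis while FoxO transcription factors are kept out of the nucleus. Igf2r lacks a kinase and carries IGF2 to lysosomes for destruction, and IGF-binding proteins hold IGFs outside the cell and set how much of them reaches the receptors. In heart muscle this pathway is known for physiological growth and for control of substrate use.

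The sequences that the account of the adaptors turns on are the stretches upstream of Irs2, the single gene of the 10 that differed between libraries past the threshold, of its paralog Irs1, and of Igfbp1, the textbook gene that insulin switches off through FoxO proteins. Each is the 250 bases before the transcription start from RefSeq (GRCm38.p6), read 5′ to 3′ on the gene's own strand. Capitals mark the E-box letters CACGTG, which basic helix-loop-helix factors bind, and the insulin response letters CAAAACAA or, on the other strand, TTGTTTTG.
Irs2, chr8:11008930-11009179, minus strand: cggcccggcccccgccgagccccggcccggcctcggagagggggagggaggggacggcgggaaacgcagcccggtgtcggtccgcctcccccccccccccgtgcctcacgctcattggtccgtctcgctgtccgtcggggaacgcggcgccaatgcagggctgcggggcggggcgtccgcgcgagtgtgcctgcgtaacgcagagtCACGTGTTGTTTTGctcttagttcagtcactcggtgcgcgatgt
Irs1, chr1:82291440-82291689, minus strand: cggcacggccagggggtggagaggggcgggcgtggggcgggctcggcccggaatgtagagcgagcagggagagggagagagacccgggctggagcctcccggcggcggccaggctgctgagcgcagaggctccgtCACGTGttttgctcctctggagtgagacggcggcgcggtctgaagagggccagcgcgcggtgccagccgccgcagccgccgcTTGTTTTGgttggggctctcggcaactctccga
Igfbp1, chr11:7197537-7197786, plus strand: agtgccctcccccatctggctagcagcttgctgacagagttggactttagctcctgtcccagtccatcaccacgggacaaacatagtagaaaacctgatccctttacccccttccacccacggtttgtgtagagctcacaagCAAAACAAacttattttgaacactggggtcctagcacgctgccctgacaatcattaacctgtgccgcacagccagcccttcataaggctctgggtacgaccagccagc
Upstream of Irs2 the E-box lay 44 to 39 bases before the start and the insulin response letters followed at once, 38 to 31 bases before it. Upstream of Irs1 the same pair of motifs lay apart, with the E-box 115 to 110 and the insulin response letters 33 to 26 bases before the start. Igfbp1 held the insulin response letters 108 to 101 bases before the start and no E-box.

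The search covered both strands of 300-base windows, from 250 bases before to 50 after each start, and RefSeq gave such windows for 9 of the 10 genes, 12 windows in all because Igf2 has 4. Among these 12 windows the E-box letters were in 3, those of Irs1, Irs2 and Igf2r, against 7.15% of all 32851 promoter windows. The insulin response letters were in 2, those of Irs1 and Irs2, against 2.51% of all windows. Both together were in 0.155% of all windows. Other letters were searched too. The forkhead letters TGTTTAC and the CRE letters TGACGTCA were in none of the 12 windows or that of Igfbp1. They were in 3.65% and 1.79% of all windows. The CRE half-site TGACG, the GC box GGGCGG and TATAAA (plus strand only) were each in some of the 12. The windows of Irs1, Irs2 and Igf2r were richer in G and C than the median window (52.7%). The shares of all windows are not matched for this. All these letters were chosen with the values of Irs2 known and describe sequence only.

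All 10 genes reached a level of 1 CPM, the count scaled by the library's total, in every library, as did 71.3% of all genes in the table, and together they took 0.0931%, 0.0820% and 0.0943% of the counts in libraries 1, 2 and 3. Corrected for gene length (TPM, counts per kilobase of merged exons as a share of their sum), the carrier Igfbp4 stood highest and the receptor Igf1r lowest. The order ran from Igfbp4 at 149 ± 9.03 TPM (SD, n = 3, as for the values that follow) through Igfbp5 (70.2 ± 12.1), Igf2r (58.9 ± 11.3), Igfbp3 (48.9 ± 1.33), Igf2 (30.6 ± 3.25), Insr (27.7 ± 4.19), Irs2 (25.4 ± 15.1), Irs1 (10.2 ± 1.46) and Igf1 (4.61 ± 0.903) to Igf1r at 3.55 ± 0.732 TPM. The median of the 10 genes was 29.1 TPM, against 15.1 TPM for all detected genes. Neighbours in this order whose ranges over the libraries overlapped were Igfbp5 and Igf2r, Igf2r and Igfbp3, Igf2 and Insr, Insr and Irs2, and Igf1 and Igf1r. The ranges of the other 4 neighbouring pairs were apart. The order depends on the length used. With the longest transcript Igf2 stood below Insr (log2 ratio -0.13) and Igf2r below Igfbp3 (-0.05). With no length correction the log2 ratio of Igfbp5 to Igf2r was -0.38, that of Igfbp3 to Igf2 -0.19 and that of Igf2 to Insr -1.12.

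**Figure D1:**
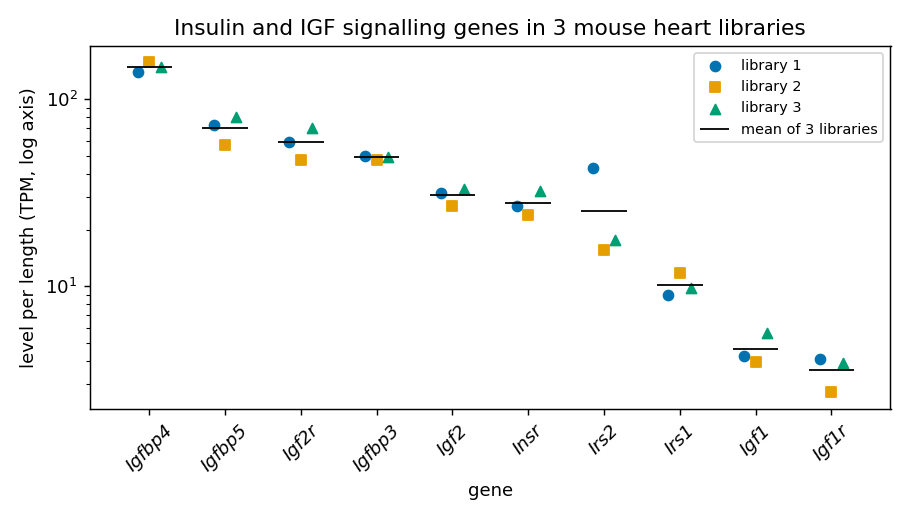
Level per length (TPM, log axis) of the 10 genes in each of the 3 libraries, with the mean as a bar, ordered by the mean. Igfbp4 sits highest at 149 TPM and Igf1r lowest at 3.55 TPM, and Irs2 is the gene whose library 1 point stands far above the points of libraries 2 and 3.

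Among the ligands, Igf2 RNA exceeded Igf1 RNA. Igf2, the imprinted growth factor best known from the fetus, had 60.4, 52.7 and 61.8 CPM in libraries 1, 2 and 3. Igf1, the growth hormone-dependent ligand that many tissues make locally, had 14.1, 13.3 and 18.1 CPM. The ranges of both genes were far apart and library 2 was the lowest for each. Per kilobase the ratio of Igf1 to Igf2 was 0.135, 0.146 and 0.169, a log2 ratio of -2.74 ± 0.17 (SD, n = 3), so Igf2 stood 6.68-fold higher (limma adjusted p = 2.07e-08). Of all genes tested 91.4% differed from Igf2 by the same rule, so passing this test is common. Here and in the ratios below, the second gene's own error enters every ratio of the fit. The limma p-values can therefore be far too small or too large. Igf2 made up 87.0 ± 1.31% of the ligand RNA per length. The log2 ratio of Igf1 to Igf2 was -2.53 with the longest transcript and -1.95 with no length correction. The fold and the share thus depend on the length used, while the direction stayed. Another annotated gene on the same strand shares 62.8% of the exon bases of Igf2, and reads of the overlap cannot be assigned to one of them from these counts. Insulin itself is made in the pancreas, and its genes Ins1 and Ins2 were looked for but are not among the genes of the count table.

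Regulators linked to Igf2 were mostly low. The RNA-binding proteins Igf2bp1 and Igf2bp3, known from the fetus, had 0, 0 and 4 and 2, 0 and 6 counts, while Igf2bp2 had 2.15 ± 0.433 TPM. Plagl1, a zinc-finger factor that is imprinted like Igf2, had 1.70 ± 0.297 TPM. Cdkn1c, an imprinted brake on the cell cycle, stood at 63.0 ± 11.9 TPM. Of this list 5 of 7 planned genes were in the table and 3 were tested for spread between libraries, with 0 past the edgeR threshold, 0 at an unadjusted p under 0.05 and 0 with DESeq2's dispersion trend.

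Insr RNA exceeded Igf1r RNA in every library. Insr had 124, 113 and 144 CPM and Igf1r 22.9, 15.6 and 21.1 CPM. Library 2 was the lowest for both receptors, and their ranges were far apart. Per kilobase the ratio of Igf1r to Insr was 0.151, 0.113 and 0.120, a log2 ratio of -2.97 ± 0.22 (SD, n = 3), so Insr stood 7.86-fold higher (limma adjusted p = 1.37e-18, with 89.5% of all genes tested differing from Insr by this rule). Insr made up 88.7 ± 1.57% of the RNA of this receptor pair per length, and 88.6 ± 1.57% when the longest transcript was used. Gene counts do not separate the A and B splice forms of Insr. Insrr, the orphan relative of both receptors, had 5, 1 and 0 counts.

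Igf2r, the receptor without a kinase, had 185, 151 and 212 CPM, with library 2 again lowest and library 3 highest. It exceeded Insr by 2.2, 1.98 and 2.17 times per kilobase and Igf1r by 14.6, 17.5 and 18.1 times. The log2 ratios were 1.08 ± 0.08 over Insr (limma adjusted p = 7.04e-08) and 4.06 ± 0.17 over Igf1r (adjusted p = 2.51e-73, with 89.8% of all genes tested differing from Igf1r). Their size depends on the length used. With the longest transcript they were 0.59 and 3.56, and with no length correction 0.52 and 3.20. Igf2r RNA also exceeded the RNA of the ligand it clears. The ratio of Igf2 to Igf2r was 0.531, 0.568 and 0.475 per kilobase, or -0.93 ± 0.13 on the log2 scale (adjusted p = 3.17e-06). Of all genes 91.4% differed from Igf2r by this rule. With 3 libraries, p-values as small as these cannot be taken at face value, and the per-library ratios are the firmer evidence.

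Between Igf1 and Igf1r no difference passed the threshold. The ratio of Igf1 to Igf1r was 1.05, 1.45 and 1.45 per kilobase, or 0.38 ± 0.27 on the log2 scale (limma adjusted p = 0.0951), with Igf1 higher in 3 of 3 libraries. Without the length correction the direction turned, at -0.38 on the log2 scale.

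The 3 receptors, both ligands, Igfbp5 and Irs2 were all lowest in library 2, and 5 of the 10 genes were highest in library 3. The share of all genes with these orders is not given here, so they cannot be called a trait of the 10. None of these genes but Irs2 passed the edgeR threshold for a spread beyond that of genes of like level, nor did any other with DESeq2's dispersion trend. Igf2r (edgeR adjusted p = 0.723) and Igfbp5 (0.925) lay under 0.05 before adjustment, as did 5.39% of all genes tested. Long transcripts as a whole were also lowest in library 2 and highest in library 3. The median log2 deviation from the 3-library mean of the 742 tested genes with a longest transcript over 8 kb was -0.04, -0.12 and 0.15 in libraries 1, 2 and 3, and that of the 2383 genes under 2 kb was 0.00, 0.06 and -0.06. Insr, Igf1r, Igf2r and Irs1 were 4 genes of the long class, and of these Insr and Igf2r shared that order, Igf1r was highest in library 1 and Irs1 was highest in library 2. Insr lay at -0.02, -0.17 and 0.19, Igf1r at 0.23, -0.33 and 0.11, and Igf2r at 0.03, -0.26 and 0.23. The part of transcript length in these orders was not tested.

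**Figure D2:**
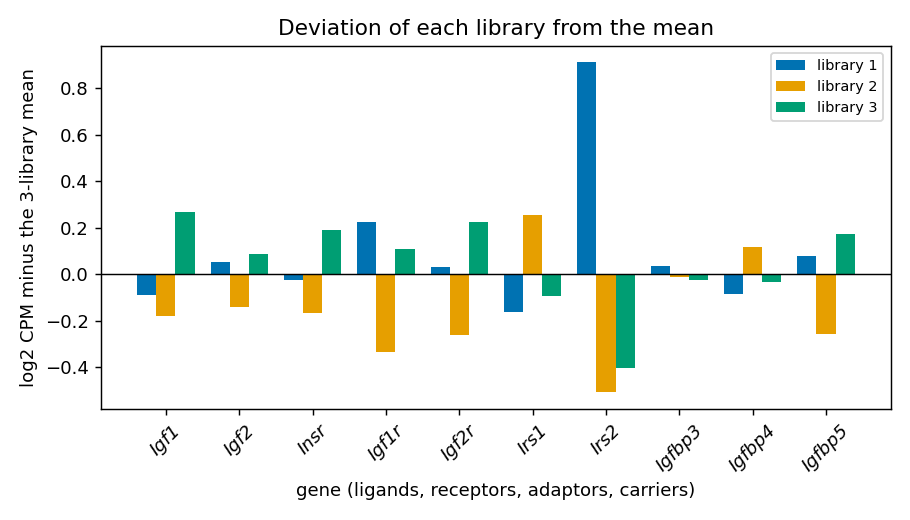
Log2 CPM of each library minus the 3-library mean of the same gene (y axis), for the 10 genes ordered as ligands, receptors, adaptors and carriers. Library 2 lies below 0 for both ligands and the 3 receptors, and the bars of Irs2 run from 0.91 in library 1 to -0.51 in library 2.

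Irs2 was the single one of the 10 genes that differed between the libraries past the threshold. Irs2, the adaptor that fasting raises and insulin lowers in liver, had 2292, 894 and 905 counts, or 90.6, 33.9 and 36.3 CPM. Library 1 stood 2.67 times above library 2, while libraries 2 and 3 were close to each other. The SD of its log2 CPM was 0.79, above 98.8% of all genes tested, and edgeR's deviance test against genes of like level gave an adjusted p of 9.85e-13. Of all 12521 genes tested, 74 passed this rule (0.591%), and 41 of them were highest in library 1. Library 1 alone decides the call, since without it the adjusted p of Irs2 was 0.999. Over the other 6 alternatives tried the adjusted p lay between 6.09e-13 and 3.01e-08.

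Irs1, the adaptor most linked to insulin action in muscle, did not follow Irs2. It had 27.6, 36.9 and 29.1 CPM, lowest in library 1 where Irs2 was highest and highest in library 2. This spread did not pass the threshold (SD of log2 CPM 0.22, edgeR adjusted p = 0.999). Per kilobase Irs2 stood 4.74, 1.33 and 1.81 times above Irs1, a log2 ratio of Irs1 to Irs2 of -1.17 ± 0.96 (SD, n = 3, limma adjusted p = 0.0252, with 67.0% of all genes tested differing from Irs2). The call was lost without the length correction (adjusted p = 0.241), without the filter (0.0752) and without library 3 (0.116). The lowest limma adjusted p among the other planned settings was 0.00623, without library 1. A limma fit with separately moderated variances, a setting chosen after seeing the data, gave an unadjusted p of 3.03e-06. Irs2 thus made up 82.6%, 57.0% and 64.4% of the RNA of the pair per length, and the summed level of both was 51.7, 27.5 and 27.5 TPM. A gene on the opposite strand overlaps 30.9% of the exon bases of Irs1, and as the strand setting of the counting was not given in the sources used here, reads of both cannot be told apart.

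**Figure D3:**
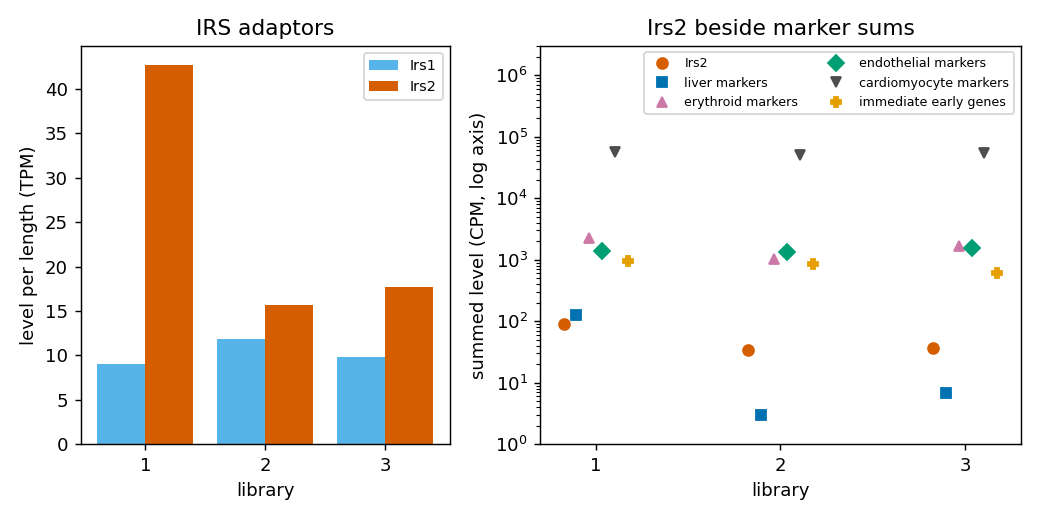
Left, Irs1 and Irs2 per length (TPM, bars from 0) in libraries 1, 2 and 3. Right, Irs2 and the summed CPM (log axis) of marker lists and of immediate early genes in the same libraries. Irs2 and the liver, erythroid and immediate early gene sums are highest in library 1. Cardiomyocyte markers stay between 51470 and 55550 CPM.

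Liver and erythroid markers and the atrial peptide gene Nppa were, like Irs2, highest in library 1. Liver markers summed to 126, 2.99 and 6.74 CPM, and all 9 were highest in library 1. There Alb, the serum albumin, stood at 57.2 CPM, and the apolipoprotein Apoa1 had 444 counts against 1 and 2 in libraries 2 and 3. Alb had 0 counts in library 2 and Apoc3 had 0 in libraries 2 and 3. All 3 liver markers that were tested, Serpina1e, Hp and Apoa2, passed the edgeR threshold. Erythroid markers summed to 2221, 1047 and 1697 CPM, and all 5 (Hbb-bs, Hba-a1, Hbb-bt, Hba-a2 and Alas2) were highest in library 1 and passed. Nppa, which codes for atrial natriuretic peptide, had 460, 225 and 233 CPM (edgeR adjusted p = 7.43e-09). Of the other atrial markers, Myl4 was also highest in library 1 (5.14, 1.89 and 4.70 CPM). Myl7 had 0, 1 and 8 counts and Sln 0, 0 and 1, both highest in library 3. Of 16 immediate early genes, listed after the values had been seen, 11 were highest in library 1 and 5 in library 2, and they summed to 948, 838 and 604 CPM, so that library 3 was low and libraries 1 and 2 were closer to each other. Single genes of this list differed in their order. Of the 7 past the edgeR threshold, Nr4a1, Atf3, Egr3 and Junb were highest in library 1 and Fos, Egr1 and Dusp1 in library 2. The orphan nuclear receptor Nr4a1 had 112, 43.9 and 40.9 CPM, and the transcription factor gene Fos had 13.4, 20.1 and 4.42 CPM. Cardiomyocyte markers, led by Myh6 and Myl2, summed to 55550, 51470 and 54960 CPM, and macrophage markers, led by Lyz2 and C1qb, to 1103, 1039 and 1029 CPM. The part of liver RNA, of blood, of atrial tissue and of early-response genes in the level of Irs2 was not tested. In bulk RNA a change in the number of cells of a type and a change in RNA per cell cannot be told apart.

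**Figure D4:**
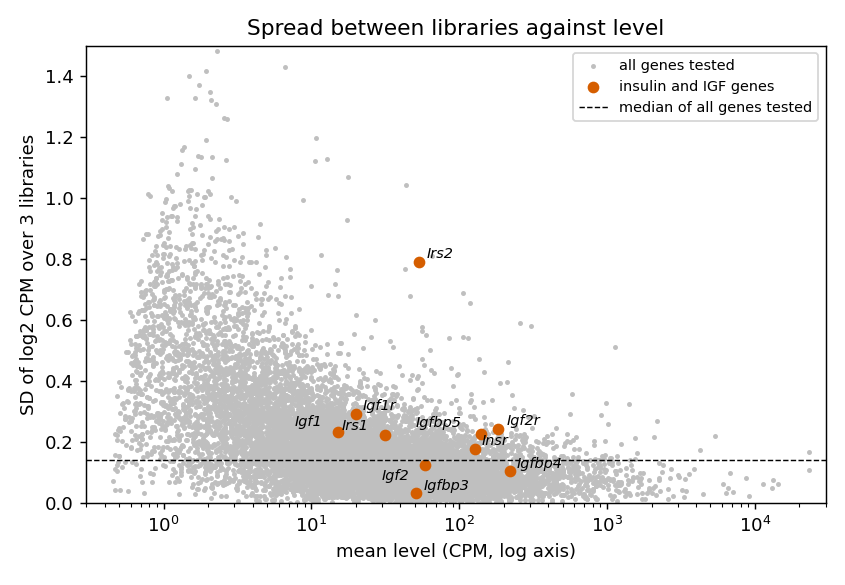
SD of log2 CPM over the 3 libraries against mean CPM (log axis) for all genes tested (grey) and the 10 insulin and IGF genes (orange); 7 genes lie above the plotted range. Irs2 at 0.79 stands far above the dashed median of 0.14, and Igfbp3 at 0.03 lies near the bottom.

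Igfbp4 was the most abundant of the 10 genes per length, and Igfbp3 and Igfbp4 had the smallest spread between libraries. Igfbp5 came next by mean level per length, but its range overlapped that of Igf2r, which stood above it with no length correction. Igfbp4, which holds IGFs away from their receptors until the protease PAPP-A cuts it, had 206, 237 and 214 CPM. Igfbp5, a carrier that also binds extracellular matrix, had 147, 117 and 157 CPM, lowest in library 2. Igfbp3, the main IGF carrier of blood, had 52.3, 50.6 and 50.1 CPM, and the highest of these was 1.04 times the lowest. The SD of its log2 CPM was 0.03, above that of 4.75% of all genes tested. For the 10 genes together the median SD was 0.22, against 0.14 for all genes tested, and 7 of the 10 lay above that value. Those 7 were also the ones with the longest transcripts, from 6006 bases (Igfbp5) to 11409 (Igf1r). Tested genes of 6 to 8 kb had median log2 deviations of -0.02, -0.07 and 0.10 in libraries 1, 2 and 3. The larger spread, set against genes of all lengths, thus cannot be called a trait of the 10, and the part of transcript length was not tested.

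Igfbp4 exceeded Igfbp5 in every library. The ratio of Igfbp5 to Igfbp4 was 0.526, 0.362 and 0.540 per kilobase, or -1.09 ± 0.32 on the log2 scale (limma adjusted p = 0.000217, with 97.7% of all genes tested differing from Igfbp4). Igfbp4 exceeded Igfbp3 by 2.79, 3.32 and 3.02 times (log2 ratio 1.60 ± 0.13, adjusted p = 1.74e-05). Igfbp5 exceeded Igfbp3 by 1.47, 1.20 and 1.63 times (0.51 ± 0.23, adjusted p = 0.00662), but with the longest transcript this ratio was 0.14 on the log2 scale with an adjusted p of 0.27. Of all genes tested 94.4% differed from Igfbp3.

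Igfbp3 and Igfbp1 are neighbours in the mouse genome, as are Igfbp5 and Igfbp2, and in both pairs a single gene was detected. Igfbp1, a liver carrier, had 34, 0 and 0 counts, where a count of 0 allows up to 0.114 CPM in library 2 and 0.120 CPM in library 3. Its counts in library 1 fell where the liver markers were highest. Against a floor of 3 counts per library, Igfbp3 was at least 217-fold higher than Igfbp1 per kilobase in library 2 and at least 203-fold in library 3, while the ratio in library 1 was 19. The limma adjusted p was 0.000268, with 82.7% of all genes tested differing from Igfbp1, and it was 0.0892 without library 2 and 0.0904 without library 3. Igfbp2, a carrier of liver and brain, had 21, 1 and 6 counts. In library 1 the ratio of Igfbp5 to Igfbp2 per kilobase was 54.6 and in library 3 it was 201 (limma adjusted p over all libraries = 2.51e-10, with 88.6% of all genes tested differing from Igfbp2).

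Of the whole list of carriers and their proteases, 10 of 13 genes were detected, against 71.3% of all genes in the table. Igfbp7, a relative with weak IGF binding known from vessels, led at 629 ± 42.3 TPM, followed by the protease Htra1 (103 ± 5.69 TPM) and the IGF2-preferring carrier Igfbp6 (87.4 ± 5.14 TPM). Stc1, a secreted inhibitor of PAPP-A, had 9.95 ± 2.55 TPM, and Pappa2 had 0, 1 and 1 counts. None of the 10 tested genes passed the edgeR threshold or that with DESeq2's dispersion trend. Igfbp5 and Stc1 lay under 0.05 before adjustment, as did 5.39% of all genes tested. Igfbp1 to Igfbp6 summed to 359, 349 and 362 TPM, and Igf1 plus Igf2 to 35.7, 30.9 and 38.9 TPM. Carrier RNA was therefore 10.04, 11.29 and 9.305 times ligand RNA per length. The size of this ratio depends on the length used and was smaller in CPM. Most of the ligand RNA was Igf2, which shares 62.8% of its exon bases with another gene. Igfbp3, Igfbp4 and Igfbp5 made up 75.1 ± 2.03% of the carrier RNA per length, and Igfbp4 alone 41.7 ± 3.17%.

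**Figure D5:**
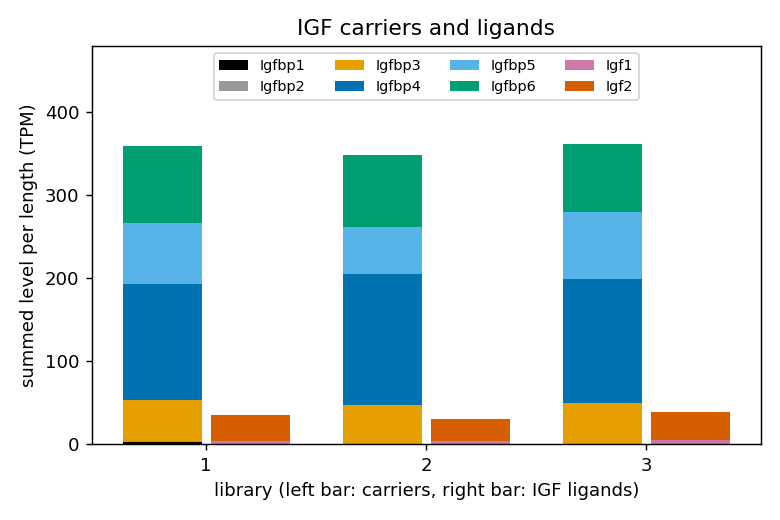
Summed level per length (TPM, bars from 0) of the carriers Igfbp1 to Igfbp6 (left bar) and of the ligands Igf1 and Igf2 (right bar) in each library. Carrier sums lie between 349 and 362 TPM and ligand sums between 30.9 and 38.9 TPM, and the black Igfbp1 segment shows in library 1 alone.

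Most other genes of the pathway lists, which also hold carriers, growth hormone, imprinted and fasting-responsive genes, were detected, and 2 passed the test of spread. Over all these lists, 108 genes outside the 10 were listed, 104 were in the table and 94 were detected, as were 71.3% of all genes in the table. Of the 95 that were tested, 2 passed the edgeR threshold, or 2.11% against 0.591% of all genes. Before adjustment 11 did, as did 5.39% of all genes tested. The same shares of all genes, 71.3% and 5.39%, apply to the counts of single lists below. The genes past the threshold were 2 in number. They were Tsc1 and Ucp3, and both also passed with DESeq2's dispersion trend. Tsc1, a brake on mTOR, had 23.2, 36.9 and 46.7 CPM (adjusted p = 0.00535), lowest in library 1. Ucp3, the muscle uncoupling protein that fasting raises, had 52.8, 90.8 and 47.2 CPM (adjusted p = 0.000192), highest in library 2.

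Among receptor-proximal adaptors 13 of 14 genes were detected, and Irs2 was the one past the threshold. The linkers Grb2 (107 ± 13.7 TPM) and Crk (72.5 ± 6.24 TPM) led, with Sh2b1 at 55 ± 2.09 TPM and Gab1 at 39.1 ± 2.98 TPM, and Irs4 had 0 counts in all 3 libraries. All 8 genes of the PI3-kinase list were detected, led by the regulatory subunits Pik3r1 (54.2 ± 8.88 TPM) and Pik3r2 (33.2 ± 2.84 TPM) above the catalytic subunit Pik3ca (16.7 ± 1.86 TPM) and the kinase Pdpk1 (12.9 ± 1.46 TPM). All 14 genes of AKT, FoxO and metabolic effectors were detected, with the insulin-responsive glucose transporter Slc2a4 at 402 ± 32.7 TPM, Akt1 at 241 ± 14.6 TPM, Akt2 at 119 ± 1.51 TPM and Gsk3a, a kinase that AKT restrains, at 117 ± 3.17 TPM. In both of these lists 0 genes passed the edgeR threshold or the test with DESeq2's dispersion trend. In each, 1 stood at an unadjusted p under 0.05, as did 5.39% of all genes tested. All 15 genes of the mTOR complexes and effectors were detected, led by ribosomal protein Rps6 (928 ± 47.4 TPM), the translation repressor Eif4ebp1 (180 ± 6.06 TPM), the mTOR inhibitor Akt1s1 (93.2 ± 4.11 TPM) and Tsc2 (44.8 ± 5.04 TPM).

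Inhibitors of the pathway were detected for 14 of 15 genes. The lipid phosphatase Inppl1 (104 ± 6.04 TPM) and the receptor-binding adaptors Grb14 (64.5 ± 5.22 TPM) and Grb10 (35.2 ± 5.63 TPM) were highest, with the pseudokinase Trib2 at 23.6 ± 2.92 TPM. Socs1, a cytokine-induced inhibitor, had 18, 17 and 37 counts. All 15 were tested and 0 passed the edgeR threshold, 1 did at an unadjusted p under 0.05 and 0 with DESeq2's dispersion trend. All 6 genes of the growth hormone axis were detected, with Stat5b (54.3 ± 4.64 TPM), the growth hormone receptor Ghr (48.7 ± 4.59 TPM), Cish (45.6 ± 4.26 TPM) and Jak2 (21 ± 2.10 TPM) leading. None of these 6 passed the edgeR threshold, with 0 at an unadjusted p under 0.05 and 0 with DESeq2's dispersion trend.

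FoxO and fasting-responsive genes, a list that holds Irs2 and Insr, did not share one order of libraries. Of 21 genes 18 were detected and tested, and Irs2 and Ucp3 passed the edgeR threshold, each highest in a different library, against 0.591% of all genes. Before adjustment 7 of the 18 lay under 0.05, against 5.39% of all genes, namely Irs2, Ucp3, Txnip, Ddit4, Ppargc1a, Angptl4 and Sesn3. Library 1 was highest for 10 of the 21, library 2 for 7 and library 3 for 4. Txnip, an inhibitor of glucose uptake, stood at 1472 ± 189 TPM, Pdk4, which shuts pyruvate out of oxidation, at 990 ± 89.1 TPM, the mTOR inhibitor Ddit4 at 409 ± 60.0 TPM and the muscle ubiquitin ligase Trim63 at 367 ± 35.2 TPM. The liver enzymes of the list, Pck1 with 78, 3 and 12 counts and G6pc with 3, 0 and 0, were highest in library 1, as Igfbp1 was.

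Markers of the other cells that heart tissue can hold were summed in the same way. Fibroblast markers, led by Dcn and Dpt, summed to 1365, 1634 and 1724 CPM, endothelial markers, led by Pecam1 and Cdh5, to 1376, 1317 and 1580 CPM, endocardial markers, led by Vwf and Nfatc1, to 198, 158 and 178 CPM, and those of pericytes and smooth muscle, led by Rgs5 and Acta2, to 1390, 1504 and 1712 CPM. Mesothelial markers summed to 20.1, 14.96 and 27.4 CPM, led by Wt1 and Upk3b. Of these 7 markers 6 were highest in library 3, where Upk3b had 212 counts against 2 and 0 in libraries 1 and 2, while Wt1 was highest in library 1. Adipocyte markers, led by Cfd and Plin1, reached at most 3.05 CPM, and skeletal muscle markers, led by Tnni2 and Mylpf, at most 4.24 CPM with Myh1 at 0 counts throughout. Col3a1 and Col1a1, fibroblast collagens highest in library 3, passed the edgeR threshold. Atrial markers summed to 465, 227 and 238 CPM, nearly all of it from Nppa with Myl4 next. The part of these cells in the levels of the 10 genes was not tested.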

How the data were processed

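The authors deposited 1 table of whole-number counts per gene symbol for 3 libraries, with no normalization. Poly(A) RNA was captured with probes, per the labels' protocols. HISAT2 2.0.4, Bowtie2 2.2.5, RSEM and build GRCm39 are named, with no roles, in the submitters' processing notes, and the strand setting is not given in the sources used here. Since RSEM writes estimated counts, the authors' whole numbers may have been rounded.

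Totals were 25311388, 26398140 and 24914479 counts, and a floor of 3 counts, for counting error only, equals 0.119, 0.114 and 0.120 CPM. Lengths (merged exons) came from GENCODE M21 by symbol, for 16077 of 16587 genes; this is another build, so gene coordinates were not used. Promoters are RefSeq's, with their own build.

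Spread between libraries was tested with edgeR 4.0.16 on 12521 genes past its default filter: intercept-only model, TMM, trended dispersion, deviance against chi-square, Benjamini-Hochberg over all genes at 0.05. On simulated data with a gene changed in 1 library, 58.0% of 2-fold and 2.00% of 1.5-fold changes were recovered, so spreads of that size can be missed. Ratios were log2 of counts per kilobase with 0.5 added, each fitted with limma 3.58.1 for all genes over the second gene of the pair, adjusted over all genes. In that fit the second gene's own error enters every ratio, so these p-values can be far too small or too large; the per-library ratios and SD are the firmer evidence. The smallest p of an exact sign-flip test on 3 libraries is 0.25. R 4.3.3, DESeq2 1.42.0 and matplotlib 3.10.9 were also used.

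The members, lists, pairs and tests were chosen with earlier results of these data known. The text names the 10 genes, up to 4 other genes of highest mean TPM and up to 3 under 1 CPM in each pathway list, list genes past the threshold, the leading 2 of each marker list and those at 0. Apoc3, Myl7, Sln, the immediate early genes, the unadjusted fasting genes and the promoter motifs were chosen after their values were seen. One further marker list is not reported here.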

Additional observations from a re-analysis of the deposited data

How the results depend on the processing

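No paired analysis was possible because the libraries form 1 group. The count of genes with a spread past the threshold was 74, and 126 with no filter; leaving out 1 library gave 17 to 51, with 17 without library 1 and 39 without library 3. The count among the 10 genes was 1, and leaving out 1 library gave 0 to 1, with 0 without library 1; the adjusted p of Irs2 then ranged from 7.62e-11 to 0.999. Detection of all 10 genes and their mean CPM kept within the replicate spread under every scaling, limit and left-out library tried, but the mean of Irs2 moved from 53.6 to 35.1 CPM without library 1, which itself sets that spread. The log2 ratio of Irs1 to Irs2 was -0.64 with no length correction and -1.17 with no filter, both short of the threshold, and -1.55 to -0.63 with 1 library left out. Igf1 to Igf1r turned to -0.38 with no length correction, and passed at 0.38, before adjustment, with separately moderated variances, a setting chosen after seeing the data. Igfbp5 to Igfbp3 was lost with the longest transcript, and Igfbp3 to Igfbp1 without library 2 (7.24) or library 3 (7.29). The other 88 of 96 recomputed ratios kept direction and call. With 3 libraries, changes under 2-fold were mostly not detectable.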
